A study of Mus musculus with 4 samples.

Results

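Zcwpw1, Pilrb1, Gm36551 and Pilrb2 are 4 neighbouring genes of mouse chromosome 5, out of 56980 genes in the matrices. They were chosen by symbol, because they lie side by side and because their transcripts were known to be more abundant in TKO than in Ctrl keratinocytes. The differences between the genotypes are therefore described here with no test. Single-cell RNA-seq had been collected from dorsal skin epithelium of mouse embryos at E16.5 per the labels, although the study's list of litters gives a younger age for its scRNA-seq litter. Sorting had selected cells with Epcam, found on the surface of epithelia, and α6 integrin, an anchor of basal cells to the basement membrane. The 2 Ctrl embryos were Suv39h1 f/f, Suv39h2-/-, Setdb1 f/f and lacked Cre. The 2 TKO embryos carried these same alleles together with K14CreERT2, a Cre recombinase that tamoxifen activates and that the K14 promoter drives in basal keratinocytes. Both groups received tamoxifen, each library came from 1 embryo, and the mice were of mixed background. The study's list of litters describes the knockout in this litter as mosaic, so a TKO library could hold cells that kept their alleles.

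The files held 3804 to 5785 barcodes and 70749496 to 89655247 UMIs per library, a UMI being a molecule counted once. Any pair of libraries shared 2 to 12 cell barcodes. The keratinocytes kept numbered 2850 and 2996 in replicates 1 and 2 of Ctrl and 1592 and 1804 in those of TKO. Their median depths were 21958 and 17325.5 UMIs in Ctrl, compared with 29896.5 and 27985 in TKO. Because the TKO cells were deeper, shares of cells are given after each cell had been thinned to 5000 UMIs, which left out 5 to 40 keratinocytes per library. Setdb1, one of the targeted genes, had 67.7 and 58.2 CPM (UMIs per 1000000 UMIs of the same cells) in Ctrl keratinocytes and 39.5 and 42.4 CPM in TKO. Suv39h1 had 24.4 and 25.3 CPM against 24.9 and 19.98 CPM. Suv39h2, deleted in all 4 embryos per the labels, had 13.9 and 17.2 CPM against 22.3 and 16.1 CPM. Since the assay reads the 3' ends of transcripts, loss of the floxed exons cannot be seen in them.

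H3K9me3 is a histone mark of silent chromatin, placed by the enzymes that Suv39h1, Suv39h2 and Setdb1 encode. ZCWPW1 is a chromatin protein of germ cells that reads histone methylation placed by PRDM9 at sites of meiotic recombination. The PILR proteins are paired immunoglobulin-like receptors best known from myeloid cells. The receptor encoded by Pilra inhibits signalling through phosphatases, whereas the PILRβ receptors, encoded by Pilrb1 and Pilrb2, activate it through the adaptor DAP12 (Tyrobp) and the kinase SYK. Gm36551 is annotated as a long non-coding RNA.

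In GENCODE vM39 (GRCm39) the 4 genes span 113.1 kb, from 137785549 to 137898687 on chromosome 5. Zcwpw1 (ENSMUSG00000037108, plus strand, 137785549 to 137820883) starts 368 bases from Mepce, which runs the other way, and overlaps the end of Pilra (minus strand, 137820214 to 137834543) by 670 bases. Pilrb1 (ENSMUSG00000066684, minus strand) lies at 137850409 to 137856368. Gm36551 (ENSMUSG00000106478, plus strand, 137855307 to 137898687) starts 1061 bases inside Pilrb1 in the opposite direction. It then runs across the whole of Pilrb2 (minus strand, 137864089 to 137870077) and into the end of Cyp3a13. Within Pilrb2, at the same distance of 1061 bases from its start, lies the start of a second short lncRNA, Gm43495. The 300 bases around the outermost annotated start of 5 of these genes, 250 before and 50 after, are shown because the windows of the PILR genes are near copies of each other while their levels in TKO differed. They were read from the GRCm39 genome in the direction of transcription. Capitals mark CG dinucleotides in Zcwpw1, and in Pilrb2 and Pilra the bases that differ from Pilrb1. Gm36551 and Pilrb1 are in lower case throughout.
Zcwpw1, chr5:137785299-137785598, plus strand: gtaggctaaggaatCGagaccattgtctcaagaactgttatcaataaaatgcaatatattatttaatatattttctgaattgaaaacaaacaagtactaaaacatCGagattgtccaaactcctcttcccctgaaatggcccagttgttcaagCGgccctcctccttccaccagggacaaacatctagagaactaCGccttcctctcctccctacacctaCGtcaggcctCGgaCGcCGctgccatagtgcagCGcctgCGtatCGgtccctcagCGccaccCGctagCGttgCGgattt
Gm36551, chr5:137855057-137855356, plus strand: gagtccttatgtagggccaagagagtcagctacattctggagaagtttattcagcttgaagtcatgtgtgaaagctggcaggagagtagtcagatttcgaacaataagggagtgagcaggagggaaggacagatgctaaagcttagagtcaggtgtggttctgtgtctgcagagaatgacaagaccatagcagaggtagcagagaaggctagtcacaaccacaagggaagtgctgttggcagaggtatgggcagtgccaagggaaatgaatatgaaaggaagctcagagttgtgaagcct
Pilrb1, chr5:137856319-137856618, minus strand: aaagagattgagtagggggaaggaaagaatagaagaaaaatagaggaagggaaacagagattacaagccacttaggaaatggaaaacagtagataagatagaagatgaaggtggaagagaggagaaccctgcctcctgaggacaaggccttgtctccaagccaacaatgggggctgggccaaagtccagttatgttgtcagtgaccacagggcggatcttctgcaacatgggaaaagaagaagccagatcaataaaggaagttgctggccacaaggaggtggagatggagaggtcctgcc
Pilrb2, chr5:137870028-137870327, minus strand: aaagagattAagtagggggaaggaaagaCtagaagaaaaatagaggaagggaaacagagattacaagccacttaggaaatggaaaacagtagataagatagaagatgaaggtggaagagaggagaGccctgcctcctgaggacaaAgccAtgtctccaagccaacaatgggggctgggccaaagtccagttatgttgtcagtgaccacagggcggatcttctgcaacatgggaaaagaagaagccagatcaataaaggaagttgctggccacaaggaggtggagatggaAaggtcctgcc
Pilra, chr5:137834494-137834793, minus strand: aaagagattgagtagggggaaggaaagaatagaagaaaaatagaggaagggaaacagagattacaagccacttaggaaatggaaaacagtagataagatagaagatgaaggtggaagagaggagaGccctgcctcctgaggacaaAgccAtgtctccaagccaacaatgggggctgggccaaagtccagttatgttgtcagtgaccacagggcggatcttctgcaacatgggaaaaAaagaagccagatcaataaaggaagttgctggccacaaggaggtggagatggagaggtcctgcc

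The Pilrb2 window was 98.0% identical to that of Pilrb1, with 6 differences, and the Pilra window was 98.7% identical to it, with 4. The windows of Gm36551 and Gm43495 were also 98.7% identical to each other. The near copies thus covered both a receptor start and an opposite lncRNA start. The Zcwpw1 window held 15 CG dinucleotides, and 85.6% of 78287 annotated start windows held as few or fewer. The other windows held 1 CG each, which 22.1% of start windows had as a maximum. The NFY box (CCAAT, in 37.6% of start windows), the POU octamer (ATGCAAAT, in 2.3%) and the cAMP response element (TGACGTCA, in 1.1%) were searched on both strands, and these letters did not occur in the windows of the 6 genes.

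The receptor copies are also alike where a 3' assay reads them. The last 500 bases of the canonical Pilrb1 and Pilrb2 transcripts were 97.0% identical, with a longest identical run of 86 bases, so the division of UMIs between Pilrb1 and Pilrb2 is uncertain. The end of Pilra was distinct, with 50.2% and 50.6% identity to them. Of the Pilrb2 gene, 292 bases overlap exons of Gm36551 on the other strand. Whether strand and intronic reads were used in counting was not stated in the sources used here.

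Zcwpw1 was the only one of the 4 genes with clear transcripts in Ctrl. Its UMIs in keratinocytes numbered 133 and 116 in Ctrl replicates 1 and 2 and 337 and 229 in TKO replicates 1 and 2. Both TKO libraries lay above both Ctrl libraries. As levels these were 1.95 and 2.02 CPM in Ctrl, with a mean of 1.98 ± 0.0523 (SD, n = 2), against 6.33 and 4.21 CPM in TKO, with a mean of 5.27 ± 1.5. The ratio of the pooled levels was 2.66 (95% interval for counting error only, 2.29 to 3.10). The TKO libraries themselves differed, the first lying above the second. At 5000 UMIs per cell, 0.814% and 0.812% of Ctrl keratinocytes and 3.59% and 2.17% of TKO keratinocytes had a Zcwpw1 UMI. No keratinocyte held more than 5 of its UMIs.

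Gm36551 was close to absent from Ctrl and frequent in TKO. Ctrl keratinocytes held 7 and 4 UMIs, each in a separate cell, whereas TKO keratinocytes held 1304 and 1464. The levels were 0.102 and 0.0696 CPM in Ctrl against 24.5 and 26.9 CPM in TKO, and the groups did not overlap. The group means were 0.0860 ± 0.0232 and 25.7 ± 1.70 CPM (SD, n = 2), and the ratio of the pooled levels was 294 (counting interval 164 to 590). Relative to their mean, the TKO replicates lay closer together than those of Zcwpw1. At 5000 UMIs per cell, 10.5% and 10.7% of TKO keratinocytes had a Gm36551 UMI (exact 95% intervals 9.06 to 12.1 and 9.29 to 12.2), against 0.0708% and 0.0338% in Ctrl. Without thinning the TKO shares were 33.6% and 33.1%. For comparison, none of the immune-like cells of the TKO libraries had a Gm36551 UMI, and a count of 0 allows up to 1.23% and 1.08% of them at 5000 UMIs. These cells had median depths of 18240 and 17884.5 UMIs. UMIs of Gm36551 were slightly clustered in cells, since a Poisson spread of the same means would have given 12.4% and 12.0% of cells. The most in a single cell were 15 and 14 UMIs. Summed levels alone do not tell more positive cells from more RNA per cell.

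Pilrb1 was not detected in Ctrl keratinocytes and was low in TKO. It had 0 and 0 UMIs in Ctrl against 31 and 40 in TKO, or 0.582 and 0.735 CPM. Against a floor of 3 counts over the Ctrl group, the TKO level was at least 27.7-fold higher. The UMIs came from 30 and 25 cells. A single basal-like cell of TKO replicate 2 held 6 Pilrb1 UMIs along with 6 of Pilrb2 and 7 of Gm36551, and without it that library had 34 Pilrb1 UMIs (0.625 CPM). At 5000 UMIs per cell 6 and 3 TKO keratinocytes were positive, or 0.378% and 0.167%.

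Pilrb2 followed the same outline. It had 0 and 1 UMIs in Ctrl keratinocytes and 70 and 80 in TKO, or 0 and 0.0174 CPM against 1.31 and 1.47 CPM. With a single Ctrl UMI the pooled ratio of 175 was imprecise, with a counting interval of 31.0 to 6969. The share of positive cells at 5000 UMIs was 0.819% and 0.779% in TKO and 0 of 2826 and 2956 cells in Ctrl, which allows up to 0.106% and 0.101%. For both Pilrb genes each TKO library thus lay above each Ctrl library. The plot of levels along chromosome 5 sets them beside the other genes.

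**Figure D1:**
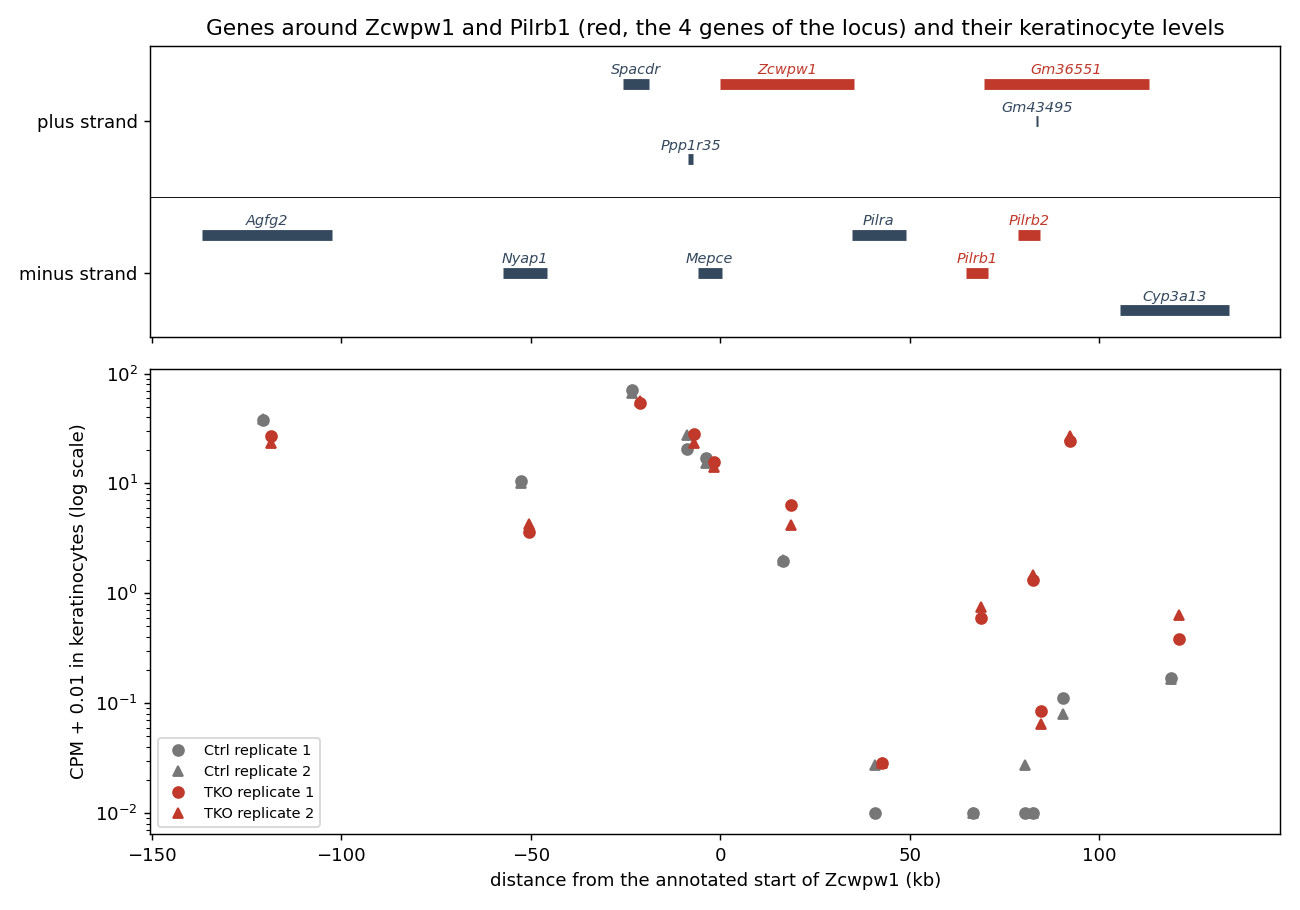
Upper panel, gene bodies by strand against the distance from the annotated start of Zcwpw1 in kb, with the 4 described genes in red and neighbours in blue. Lower panel, the CPM of each gene in keratinocytes (log axis, 0.01 added so that 0 can be drawn), with a circle for replicate 1, a triangle for replicate 2, grey for Ctrl and red for TKO. Mepce and Ppp1r35 show both genotypes at nearly the same height, Pilra stays near the bottom of the axis in both, and Gm36551 reaches 24.5 and 26.9 CPM in TKO against 0.102 and 0.0696 CPM in Ctrl.

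Pilra, the inhibitory partner, stayed near 0 in keratinocytes although it lies between Zcwpw1 and Pilrb1. It had 0 and 1 UMIs in Ctrl against 1 and 1 in TKO. Gm43495, the lncRNA inside Pilrb2, had 0 and 0 UMIs in Ctrl against 4 and 3 in TKO. Markers of immune cells, where PILR genes are usually expressed, were examined in the same keratinocytes. All 7 immune markers had UMIs in keratinocytes of each library, and their sum was 5.69 and 7.504 CPM in Ctrl and 12.6 and 15.2 CPM in TKO, compared with 6106 to 6726 CPM in immune-like cells. Tyrobp, the adaptor of PILRβ, was among them, at 0.234 and 0.400 CPM in Ctrl and 0.789 and 1.14 CPM in TKO keratinocytes. Of the Pilrb2-positive TKO keratinocytes, 1 of 58 and 2 of 63 also had a UMI of Ptprc, Spi1 or Tyrobp, shares of 1.72% and 3.17% against 1.95% and 3.33% of all keratinocytes in the same libraries. For Pilrb1 the counts were 1 of 30 and 1 of 25.

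The surrounding genes were read in the same keratinocytes. Besides the 4, 40 genes of the matrices lie in the window read around the locus, from 9130604C24Rik (start 137500935) to ENSMUSG00000121004 (end 138088061). Of these, 17 passed the filter on low counts and 23 did not, the latter with at most 47 UMIs. In a fit across all 20103 tested genes on UMIs summed over keratinocytes (edgeR's quasi-likelihood test), 6.28% were called at an adjusted p under 0.05, 4.03% as raised and 2.25% as lowered. Among the 17 neighbours 0 were raised and 2 were lowered, both on the Zcwpw1 side, where all of the 17 but Cyp3a13 lie. Unadjusted p was under 0.05 for 6, beside 24.8% of all genes. DESeq2 likewise called 0 raised and 2 lowered, beside 7.69% and 5.23% of all genes. Their median log2 change was −0.20, against −0.02 over all genes.

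Nyap1, a phosphoinositide 3-kinase adaptor of neurons, had 10.5 and 10.1 CPM in Ctrl and 3.61 and 4.28 CPM in TKO and lies 45.7 kb from Zcwpw1. Its fitted log2 difference was −1.41 (SE 0.191, edgeR adjusted p 0.0211), and the call was lost without Ctrl replicate 1 (−1.36) or without Ctrl replicate 2 (−1.46). Agfg2, an Arf GTPase-activating protein relative, had 37.6 and 38.9 CPM in Ctrl and 27.2 and 23.1 CPM in TKO, 102.5 kb away. Its fitted log2 difference was −0.63 (SE 0.109, edgeR adjusted p 0.0366), and the call was lost without Ctrl replicate 1 (−0.64), Ctrl replicate 2 (−0.63), TKO replicate 2 (−0.54) or the expression filter (−0.65). Both genes were thus lower in each TKO library than in either Ctrl library.

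The nearest tested neighbour on the Zcwpw1 side was Mepce, the capping enzyme of 7SK RNA, whose start lies 368 bases away. It had 16.9 and 15.2 CPM in Ctrl and 15.5 and 14.0 CPM in TKO. The fitted log2 difference was −0.15 (SE 0.134, edgeR adjusted p 0.551). Mepce was thus not called although its start faces that of Zcwpw1. On the other side Cyp3a13, a cytochrome P450 gene whose end overlaps Gm36551 by 7495 bases, had 11 and 9 UMIs in Ctrl against 20 and 34 in TKO. Its fitted log2 difference was 1.62 (SE 0.458, edgeR adjusted p 0.104), which missed the threshold.

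The level of the 4 genes was followed next through the keratinocyte classes, whose clustering used neither these genes nor those called between the genotypes. Within TKO, Zcwpw1 and Gm36551 were called as lower in differentiating-like than in basal-like cells. In that comparison 50.0% of 17940 tested genes were called, 24.1% as raised and 25.9% as lowered. As a check of the classes, Krt14 of basal cells and Krt10 of differentiating cells lay at 6674 and 9292 CPM and at 180 and 335 CPM in TKO basal-like cells. In TKO differentiating-like cells they lay at 1159 and 2233 CPM and at 14140 and 20400 CPM.

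Zcwpw1 had 6.47 and 4.71 CPM in basal-like cells of TKO replicates 1 and 2 and 1.52 and 1.49 CPM in differentiating-like cells. The log2 difference was −1.65 (SE 0.291, edgeR adjusted p 0.00274), and it was no longer called at 5000 UMIs per cell (−1.61, SE 0.745, edgeR adjusted p 0.0935). The gradient was also present in Ctrl, with 2.30 and 2.42 CPM in basal-like and 0.463 and 0.344 CPM in differentiating-like cells. A differentiating-like cell thus had 0.265 of the pooled basal-like level in TKO (counting interval 0.170 to 0.398) and 0.179 in Ctrl (0.0878 to 0.330). The genotype effect did not differ detectably between the classes, with an interaction of 0.55 (SE 0.510, edgeR adjusted p 0.664). Here 0.881% of genes were called, 0.563% as raised and 0.318% as lowered. With a library left out the interaction of Zcwpw1 ran from 0.29 to 0.90.

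Gm36551 showed the same order with more UMIs behind it, at 27.3 and 34.1 CPM in TKO basal-like cells and 7.44 and 5.76 CPM in TKO differentiating-like cells. Its log2 difference was −2.06 (SE 0.213, edgeR adjusted p 0.000425) and was called under each of 14 alternatives. The pooled ratio was 0.209 (0.170 to 0.254 for counting error). The mean level in TKO differentiating-like cells, 6.60 CPM, depended on how the class was drawn and was 10.7 CPM at 3000 genes, 10.68 CPM with uncorrected components and 10.6 CPM at Leiden resolution 2. At 5000 UMIs per cell, 11.2% and 12.8% of basal-like and 1.80% and 2.48% of differentiating-like cells were positive, although the latter were deeper, with medians of 34808 and 34138 UMIs against 30929.5 and 28237. Ctrl differentiating-like cells had no Gm36551 UMI and Ctrl basal-like cells had 8, so no interaction is given.

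The receptor genes were sparser. Pilrb1 had 25 and 33 UMIs in TKO basal-like cells and 0 and 1 in differentiating-like cells, a pooled ratio of 0.0703 with a counting interval of 0.00175 to 0.407. It passed the filter on low counts only through TKO basal-like cells, so its fitted difference is not given as a test. Pilrb2 had 53 and 56 UMIs against 7 and 5, a pooled ratio of 0.449 (0.225 to 0.816), and was not called (−0.92, SE 0.597, edgeR adjusted p 0.251). The TKO replicates differed here, with 1.46 and 1.77 CPM in basal-like against 1.18 and 0.465 CPM in differentiating-like cells. With a library left out the log2 difference ran from −1.72 to −0.13. Ctrl basal-like and differentiating-like cells held 1 and 0 Pilrb2 UMIs and none of Pilrb1, so no interaction of genotype and class is given for either gene.

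Hair follicle-like cells were compared with basal-like cells in the same way. Zcwpw1 had 3.09 and 2.48 CPM in Ctrl and 10.0 and 5.96 CPM in TKO. Within TKO its log2 difference from basal-like cells was 0.38 (SE 0.188, edgeR adjusted p 0.144), in a comparison that called 36.7% of 17994 genes, 17.7% as raised and 18.9% as lowered. Gm36551 had 23.4 and 20.7 CPM in TKO hair follicle-like cells and was called as lower there (log2 difference from basal-like cells −0.59, SE 0.133, edgeR adjusted p 0.00534). That call was lost without TKO replicate 2 (−0.34), with DESeq2 (−0.60), with the replicate number as a block (−0.59), at 5000 UMIs per cell (−0.46) and at Leiden resolution 2 (−0.29). Pilrb1 had 2 and 5 UMIs in these cells. Pilrb2 had 5 and 12, with a log2 difference from basal-like cells of −0.79 (SE 0.424, edgeR adjusted p 0.184). The interaction of genotype with this class was 0.32 (SE 0.295, edgeR adjusted p 0.663) for Zcwpw1, in a comparison that called 3.28% of genes, 1.66% as raised and 1.62% as lowered. It ran from 0.12 to 0.54 for Zcwpw1 with a library left out.

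The remaining keratinocyte clusters were small or mixed. The cluster named Merkel-like held 10 and 8 TKO cells beside 33 and 23 Ctrl cells, and its TKO cells had 3 and 15 Gm36551 UMIs. That name rests on the alignment of the libraries, because without it none of these TKO cells lay in a Merkel-like cluster. In replicate 1 all 10 fell among basal-like cells, and in replicate 2 6 did while 2 fell among differentiating-like cells. The values therefore do not give a level for Merkel cells.

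The unnamed keratinocyte class pooled 3 clusters. The largest (94 and 87 TKO cells), led by Zfpm2, Pthlh and Ptprt, had 34.7 and 50.1 CPM of Gm36551 in TKO and none of its UMIs in Ctrl. The other two were led by genes of other cell types, muscle genes such as Actc1, Acta1 and Myog in 22 and 11 TKO cells, and Ebf1, Fabp4 and Rgs5 in 4 and 7, and they held 0 and 7 Gm36551 UMIs in TKO. Ordered by mean TKO level, Gm36551 thus ran from the largest unnamed cluster to basal-like, hair follicle-like and differentiating-like cells. Each step separated both libraries, the first narrowly (34.7 against 34.1 CPM).

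**Figure D2:**
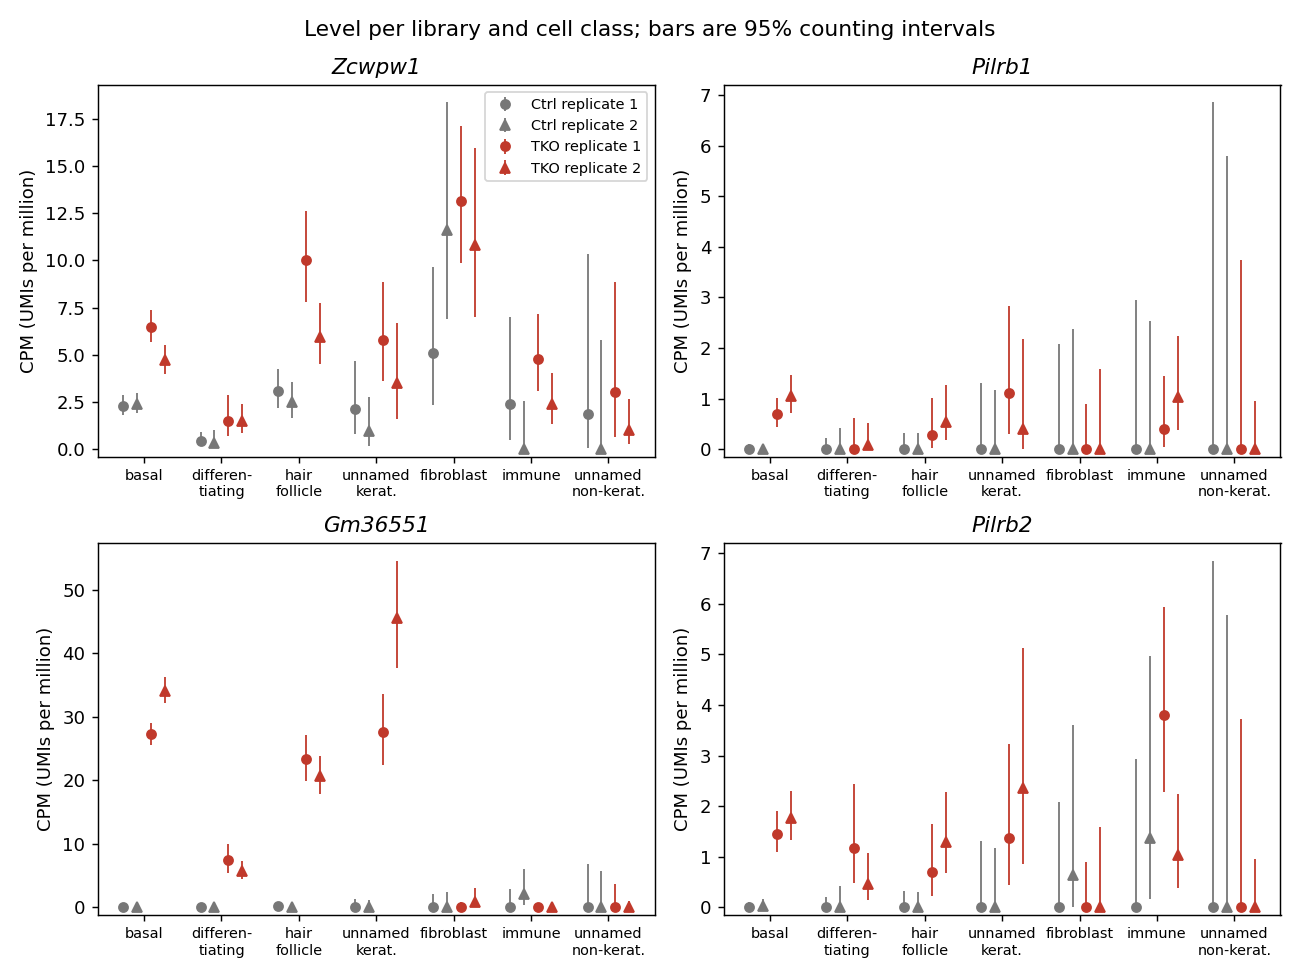
Each panel shows a gene, with cell classes on the horizontal axis and CPM (UMIs per 1000000 UMIs of the same cells) on the vertical axis; each class name stands for cells called by it with the suffix -like in the text. Points are single libraries (grey Ctrl, red TKO, circle replicate 1, triangle replicate 2) and bars are 95% counting intervals. The unnamed keratinocyte class includes the clusters led by muscle genes and by Ebf1. TKO points of Gm36551 stand above Ctrl in every keratinocyte class and near 0 in fibroblast-like and immune-like cells, whereas Zcwpw1 is present in fibroblast-like cells of both genotypes.

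Cells other than keratinocytes, which the K14 promoter does not mark, gave a different picture for each gene. Zcwpw1 was present in fibroblast-like cells of both genotypes, with 9 and 18 UMIs in Ctrl against 54 and 25 in TKO, or 5.09 and 11.6 CPM against 13.1 and 10.8 CPM. These groups overlapped, and the pooled ratio was 1.51 (counting interval 0.965 to 2.43). In immune-like cells it had 3 and 0 UMIs in Ctrl against 24 and 14 in TKO, on unequal class totals of 1253332 and 1451186 against 4998793 and 5826008 UMIs. Over all non-keratinocytes the ratio was 1.33 (0.891 to 2.03), and whether it differed from the keratinocyte ratio was not tested. That ratio pools classes in different proportions. Ctrl had 110 and 106 fibroblast-like and 64 and 97 immune-like cells, and TKO had 192 and 133 and 244 and 284. The part of this mix was not tested. Leaving out the rare and the unnamed classes, the order of mean Zcwpw1 levels in TKO ran from fibroblast-like to hair follicle-like, basal-like, immune-like and differentiating-like cells. Only the first step and the last separated both libraries of the neighbouring classes.

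Gm36551, by contrast, had 0 UMIs in the 244 and 284 immune-like cells of TKO and 0 and 2 in its fibroblast-like cells. Melanocyte-like cells of TKO, 29 and 19 in number, held 6 and 14 UMIs in 2 and 3 cells. Krt14 lay at 2143 and 7282 CPM in those positive cells and at 254 and 4983 CPM in the other melanocyte-like cells of the same libraries, and the part of keratinocyte RNA in these UMIs was not tested. In Ctrl replicate 2 a single immune-like cell held 3 UMIs. Free RNA in the droplets could be gauged from Krt14, which lay at 40.6 and 36.9 CPM in TKO immune-like cells against 5268 and 6525 CPM in TKO keratinocytes.

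The Pilrb genes were detected in immune-like cells, their usual site. Pilrb2 had 0 and 2 UMIs there in Ctrl and 19 and 6 in TKO, or 0 and 1.38 CPM against 3.80 and 1.03 CPM. Pilra was counted 0 and 3 times in Ctrl against 17 and 7 times in TKO, or 0 and 2.07 CPM against 3.40 and 1.20 CPM. The groups overlapped for both genes. Pilrb1 had 2 and 6 UMIs in TKO. The immune-like cell richest in Pilrb2, from TKO replicate 1, held 6 of its UMIs with 2 of Pilrb1, 4 of Pilra and 30 of Tyrobp, and no Gm36551. Immune-like cells of the TKO libraries thus had UMIs of Pilra and Pilrb2 and none of Gm36551, whereas TKO keratinocytes had Pilrb2 and Gm36551 with 1 and 1 UMIs of Pilra. Ctrl replicate 2 was different, since its immune-like cells held 3 UMIs of Gm36551 beside 2 of Pilrb2 and 3 of Pilra.

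Detection in the same cells was then compared, since Gm36551 overlaps both Pilrb1 and Pilrb2, which do not overlap each other. At 5000 UMIs per cell, 0.885% and 0.846% of Ctrl keratinocytes and 14.2% and 13.1% of TKO keratinocytes held a UMI of any of the 4 genes. No Ctrl cell held 2 of them, but with only 25 and 25 positive Ctrl cells this absence says little. In TKO, 13 and 13 cells held 2 of them, and another 2 cells of TKO replicate 1 held 3. The single shares would give 14.8% and 13.45% of TKO keratinocytes with any of the 4. Gm36551 and Pilrb2 met in 3 of the 13 Pilrb2-positive cells of replicate 1, where the single shares give 1.37, and in 6 of the 14 of replicate 2, where they give 1.496. The odds ratios were 2.58 (exact 95% interval 0.451 to 10.1) and 6.43 (1.82 to 21.4). Pilrb1 and Gm36551 met in 4 of 6 and 1 of 3 Pilrb1-positive cells, against 0.631 and 0.321 given by the single shares. Zcwpw1 and Gm36551 met in 10 and 5 cells, against 5.998 and 4.17, with odds ratios of 1.86 (0.821 to 3.82) and 1.24. Zcwpw1 and Pilrb2 met in no cell.

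All cells with their full depth gave larger numbers. Of the Pilrb2-positive TKO keratinocytes, 51 of 58 and 56 of 63 also held Gm36551, and of the Pilrb1-positive ones 23 of 30 and 18 of 25 did. Deep cells detect more of any gene, so odds ratios were taken within 5 bins of depth (the Mantel-Haenszel estimate, an alternative added after the data had been seen). They were 11.9 and 14.9 for Gm36551 with Pilrb2, 6.10 and 4.36 for Pilrb1 with Gm36551, and 5.96 and 7.42 for Pilrb1 with Pilrb2. Zcwpw1, which does not overlap them, gave 1.73 and 1.65 with Gm36551 and 1.98 and 1.99 with Pilrb2. With Pilrb1 it gave 1.99 and 1.24. Among basal-like cells alone, Gm36551 gave 22.4 and 9.91 with Pilrb2 and 6.22 and 2.73 with Pilrb1, Pilrb1 gave 5.86 and 9.30 with Pilrb2, and Zcwpw1 lay between 1.53 and 1.86 with the 3 others. Within bins of depth, the odds ratios among Gm36551, Pilrb1 and Pilrb2 were thus larger than those of Zcwpw1 with any of them. This held in all keratinocytes and in basal-like cells of both libraries, but the difference was not tested. This order did not hold at 5000 UMIs per cell, where Zcwpw1 with Pilrb1 gave 5.43 (exact 95% interval 0.113 to 49.7) and 22.9 (0.382 to 449), each from 1 cell with both. Shared or misassigned reads between overlapping and near-identical genes would count as the same cell, and their part was not tested.

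Pairs with other genes, near and far, give a scale for these values. Members of the locus paired with Mepce or Ppp1r35, 2 broadly expressed neighbours, gave median odds ratios of 1.15 (range 0.619 to 1.53) and 1.16 (0.848 to 1.47) within 5 bins of depth. Paired with 5 genes known to be higher in TKO (Npffr1, Gm11884, Gm42653, 1700030N03Rik and Col28a1), they gave medians of 1.79 and 1.40 over the 19 pairs of each library that have a finite value, and pairs of members gave 3.97 and 3.17. The 10 pairs among these 5 genes themselves were taken without bins of depth, where their medians were 3.62 and 2.34 and those of the members 4.55 and 3.92. At 10000 UMIs per cell the medians were 2.58 and 1.92 against 1.80 and 3.89, so that the members did not lie higher in both libraries, and no difference was tested. Among the 5 genes is Gm42653, a transcript model of the annotation class TEC 67064.1 kb away on the same chromosome. It was found in 144 of the 167 Gm36551-positive cells of replicate 1 at 5000 UMIs, where the single shares give 91.1, and in 140 of the 192 of replicate 2, where they give 82.1. The odds ratios were 6.05 (3.82 to 9.97) and 4.19 (2.97 to 5.97), and 19.5 and 10.4 within 5 bins of depth (19.2 and 18.4 in basal-like cells alone). At 5000 UMIs pairs among the 5 genes themselves reached 6.87 and 8.775, so values of this size also arose without a gene of the locus. With full depth Gm42653 was also found in 58 of 58 and 61 of 63 Pilrb2-positive cells and in 29 of 30 and 25 of 25 Pilrb1-positive cells, where the single shares within bins give 45.6 and 49.1, and 23.6 and 19.2. The odds ratios were 10.1 for Pilrb2 in replicate 2 and 9.60 for Pilrb1 in replicate 1, and the pairs found in all positive cells have none. For Zcwpw1 they were 2.35 and 2.66. None of these is a pair of neighbours.

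**Figure D3:**
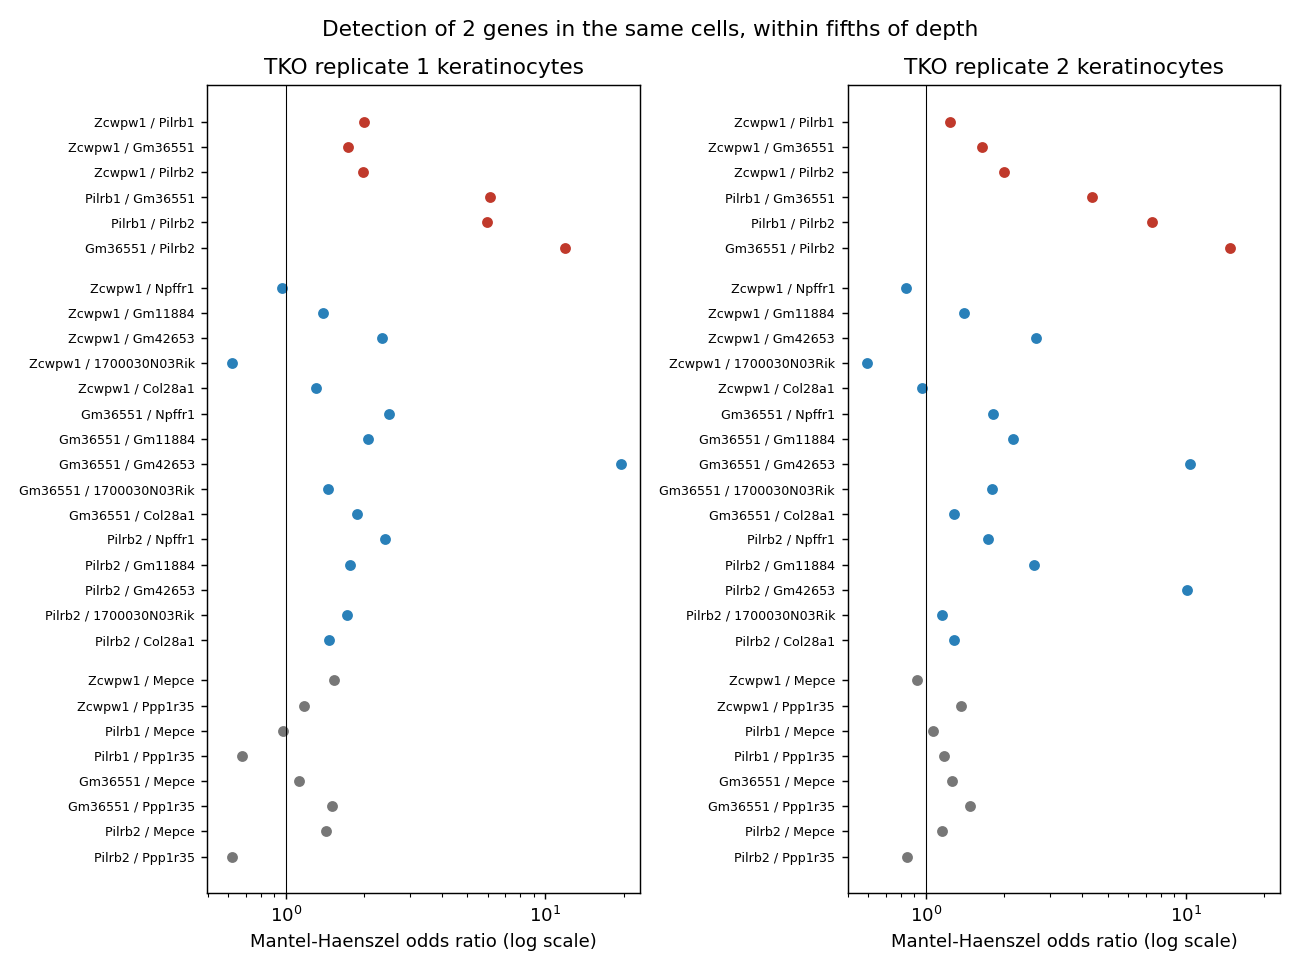
Mantel-Haenszel odds ratios (log axis) for the detection of 2 genes in the same keratinocyte, within 5 bins of depth, in TKO replicate 1 (left) and TKO replicate 2 (right). Red points are pairs of the 4 genes, blue points pairs with a gene raised elsewhere (Pilrb1 is left out of these, and a pair found in all positive cells has no point) and grey points pairs with a broadly expressed neighbour; the vertical line marks 1. Gm36551 with Pilrb2, at 11.9 and 14.9, and Gm36551 with Gm42653, at 19.5 and 10.4, lie farthest to the right, and the grey points stay near 1.

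The genes with the most similar pattern were taken over 16 sums, the 4 libraries each as basal-like, differentiating-like, hair follicle-like and non-keratinocyte cells, by the Pearson correlation of log2(CPM + 1) among 18117 genes. For Gm36551 they were Gm13284 on chromosome 4 (r = 0.982), Gm42863 on chromosome 5 (r = 0.981) and 1700108F19Rik on chromosome 14 (r = 0.979), a pseudogene model, a model of the class TEC and a lncRNA. Gm13284 had 1 UMI in Ctrl and 425 in TKO. For Zcwpw1 they were Impa1, an inositol monophosphatase (r = 0.932), Tspan2, a tetraspanin (r = 0.929), and Ift27, a small GTPase of intraflagellar transport (r = 0.928). For Pilrb2 they were Lrp1b, Gm47761 and D630023F18Rik (r = 0.906, 0.887 and 0.881). Pilrb1 had 71 UMIs, too few for this. Among themselves the 4 genes correlated at 0.523 to 0.776 over the 16 sums and at 0.232 to 0.487 over the 8 TKO sums. The sums share libraries and the genotype difference, so these values are descriptive.

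Zcwpw1 works with PRDM9 in meiosis, and a list of 36 other genes of meiotic recombination was therefore read in the keratinocyte fit. Of these, 28 passed the filter and 8 did not, with at most 21 UMIs. Among the 28, 4 rose and 0 fell, beside 4.03% raised over all genes, and the median log2 change was 0.25. Unadjusted p was under 0.05 for 12, beside 24.8% of all genes, and DESeq2 called 6 raised and 0 lowered, beside 7.69% and 5.23%.

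Stag3, a meiotic cohesin subunit 379.8 kb from Gm36551 on the same chromosome, had 0.951 and 0.627 CPM in Ctrl and 8.003 and 10.5 CPM in TKO. The rise was 3.52 in log2 units (SE 0.317, edgeR adjusted p 0.00837) and was called under each of 12 alternatives. Iho1, which is needed for meiotic double-strand breaks, had 0.585 and 0.696 CPM against 3.40 and 2.77 CPM, a rise of 2.24 (SE 0.258, edgeR adjusted p 0.0158). Its call was lost without Ctrl replicate 1 (2.13) or Ctrl replicate 2 (2.35). Dmc1, the meiotic recombinase, had 1.11 and 1.31 CPM against 5.28 and 3.20 CPM, a rise of 1.78 (SE 0.305, edgeR adjusted p 0.0362).

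Syce2, of the synaptonemal complex, had 47.6 and 53.6 CPM against 83.4 and 76.6 CPM, a rise of 0.63 (SE 0.0959, edgeR adjusted p 0.0277). The calls of Dmc1 and Syce2 were lost without Ctrl replicate 1 (1.68 and 0.56), without Ctrl replicate 2 (1.87 and 0.70) or without TKO replicate 1 (1.41 and 0.61), and that of Syce2 also at 5000 UMIs per cell (0.52). For all 4, both TKO libraries lay above both Ctrl libraries. Prdm9, which places the histone marks that ZCWPW1 reads, had 3.94 and 3.95 CPM in Ctrl and 2.78 and 2.41 CPM in TKO and was not called (−0.63, SE 0.204, edgeR adjusted p 0.137).

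For the PILR genes a list of 10 partners present in the matrices was read. It held the phosphatases Ptpn6 and Ptpn11, the adaptor Tyrobp, the kinase Syk, Pilra, Hcst and the ligands Cd99l2, Npdc1, Pianp and Colec12. Pilra and Hcst did not pass the filter on low counts. Of the 8 that did, 1 rose and 0 fell, beside 4.03% and 2.25% of all genes, and the median log2 change was 0.30. Unadjusted p was under 0.05 for 3, beside 24.8% of all genes, and DESeq2 also called 1 raised and 0 lowered. Syk had 3.22 and 3.06 CPM in Ctrl and 8.49 and 9.06 CPM in TKO, a rise of 1.46 (SE 0.182, edgeR adjusted p 0.0182). Its call was lost without Ctrl replicate 1 (1.51), without Ctrl replicate 2 (1.40) and at 5000 UMIs per cell (1.42). Syk lay at 71.8 to 126.8 CPM in immune-like cells, and the immune marker sum moved in the same direction in keratinocytes, as given above. The part of immune RNA in the Syk value was not tested. Tyrobp had a fitted log2 difference of 1.59 (SE 0.423, edgeR adjusted p 0.0927). None of the other 7 tested genes of the list was called.

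**Figure D4:**
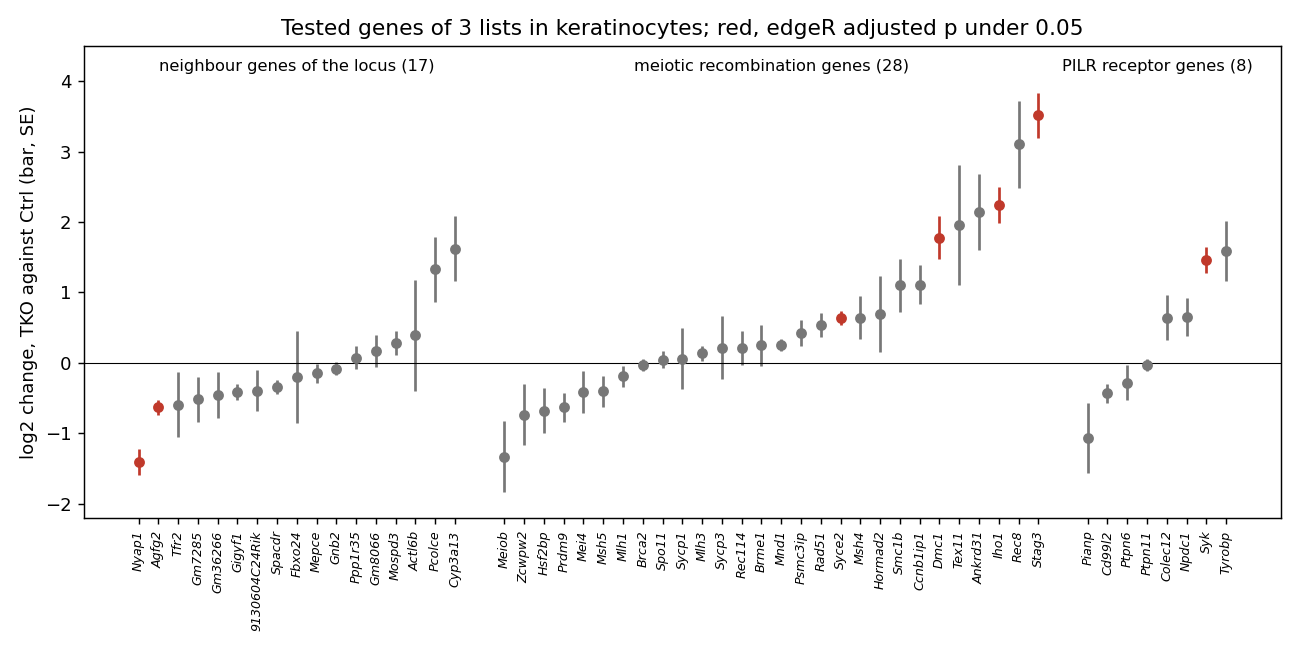
Log2 change of TKO against Ctrl in keratinocytes (vertical axis; bars are standard errors) for each tested gene of the neighbour, meiotic recombination and PILR receptor lists, ordered within each list. Red points passed an edgeR adjusted p under 0.05, which were Nyap1 and Agfg2 below 0 and Dmc1, Syce2, Iho1, Stag3 and Syk above 0.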

How the data were processed

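The authors sorted the cells, prepared 10x Genomics 3' v3 libraries and deposited, for each of the 4 embryos, a filtered table of UMI counts for genes by cells, with no normalization. Cell Ranger 7.1.0 is named in the file headers, but the study's methods give a different version. The submitters' processing notes list Cell Ranger and GRCm39. Not given in the sources used here were the annotation release and whether intronic reads or strand were used. Positions and sequences were read from GENCODE vM39 and the GRCm39 genome.

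Cells needed 2000 or more detected genes and less than 10% of UMIs from mitochondrial genes, which left 3196, 3391, 2161 and 2473 cells. Doublets were taken as the cells with the top Scrublet scores in a library, 0.8% for every 1000 barcodes, and removed (144, 157, 66 and 90 cells). Counts were scaled to 10000 per cell, 2000 variable genes gave 30 components, and these were aligned between libraries by Harmony (theta 2, 100 soft clusters, 10 iterations, in an implementation written here). Leiden clustering at resolution 1 used 20 neighbours (scanpy 1.11.5, Python 3.11.15). Clusters were named, with the suffix "-like", from marker lists with at least 3 detected markers. A second clustering of the keratinocytes left out the 4 described genes and all genes called between the genotypes. Clusters that met no rule were left unnamed.

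UMIs were summed per library, or per library and class, and tested by the quasi-likelihood method of edgeR 4.0.16 in R 4.3.3 (TMM, the default expression filter, Benjamini-Hochberg adjustment over all genes tested, threshold 0.05). Genotype was the only term for keratinocytes, and library was a block for classes. The script was tested on simulated data. Replicate sums correlated at 0.989 in Ctrl and 0.982 in TKO. The 2 libraries per group came from separate embryos, and with n = 2 an exact permutation test cannot go below 0.3333. Intervals are exact (95%), and they and the floor of 3 counts cover counting error only.

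The replicate numbers are shared by the groups, but no source used here ties them to a litter or batch. Samples with the same number did not deviate together from their group means (r = −0.26 over 20103 genes), so the number was not taken as a pairing. The genes named are the 4 described, the window genes and list genes that were called, the nearest tested gene on each side, the 3 most similar genes of each of the 4 with at least 100 UMIs, and 5 genes raised elsewhere in the genome. The members and lists were chosen with earlier results of these data known. Alternatives were DESeq2 1.42.0, RLE factors, no expression filter, 5000 UMIs per cell, doublets kept, at least 3000 genes, other clusterings, a replicate block and each library left out.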

Additional observations from a re-analysis of the deposited data

Results flagged for a closer look

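Gm36551 was also found in barcodes that the filter on genes, mitochondrial UMIs or doublets had left out, which no comparison above used. They held 0 and 0 of its UMIs in Ctrl and 118 and 151 in TKO, a mean of 16.8 CPM in TKO against 0 in Ctrl.

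Agfg2, a neighbour lower in TKO keratinocytes by a mean of 13.1 CPM, moved the other way in non-keratinocytes, where its mean level was 21.9 CPM in TKO and 19.9 CPM in Ctrl, a difference of 1.96 CPM. Iho1, raised in TKO keratinocytes, was at 1.19 CPM in TKO and 1.58 CPM in Ctrl non-keratinocytes, a difference of −0.39 CPM that rested on 6, 6, 14 and 14 UMIs. The non-keratinocytes were a different mix in each genotype, with 64 and 97 immune-like cells in Ctrl against 244 and 284 in TKO. The part of this mix was not tested, and neither was either difference between the cell groups.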

How the results depend on the processing

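In keratinocytes the fit called 1263 genes, against 2597 with DESeq2 and 413 to 1955 with a library left out. Neighbours called were 2, against 1 with no expression filter and 0 to 2 with a library left out. Meiotic genes called were 4, against 1 to 7 with a library left out. PILR partners called were 1, against 0 at 5000 UMIs per cell and 0 to 1 with a library left out. With the replicate number as a block, although the numbers do not pair the samples, the fit called 651 genes, 0 neighbours (edgeR), 2 meiotic genes, 3757 genes between hair follicle-like and basal-like cells, and 1 and 6 genes for the genotype effect in differentiating-like and hair follicle-like cells. It ended the calls of Nyap1 (−1.42), Agfg2 (−0.64), Dmc1 (1.75) and Syce2 (0.64). With the numbers crossed in the block, an alternative added after the data had been seen, it called 3192 genes, 3 neighbours (0 raised and 3 lowered), 8 meiotic genes and 2 PILR partners.

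Between differentiating-like and basal-like cells 8975 genes were called, against 5829 at 5000 UMIs and 7060 to 8140 with a library left out. For hair follicle-like cells the counts were 6598, 4132 with DESeq2, 3249 at 5000 UMIs and 4440 to 5952. The genotype effect in differentiating-like cells was called for 158 genes, against 396 with DESeq2, 1649 with no filter, 262 at 5000 UMIs, 259 with doublets kept, 23 at 3000 genes, 625 with uncorrected components, 10 at Leiden resolution 2 and 3 to 1276 with a library left out. In hair follicle-like cells it was called for 590, against 302 with DESeq2, 1370 with no filter, 246 at 5000 UMIs and 37 to 795.

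With libraries left out the interaction of Pilrb2 ran from −0.93 to 1.64 in differentiating-like and from −0.80 to 1.85 in hair follicle-like cells. It turned to −0.93 (without Ctrl replicate 2) and −0.20 (without TKO replicate 1) in differentiating-like cells and to −0.80 (without Ctrl replicate 2) in hair follicle-like cells, and that of Gm36551 to 2.41 in the latter at 5000 UMIs. None of these was called, and with 0 to 8 Ctrl UMIs of these genes in a class they are no test of a difference. At 5000 UMIs per cell the mean level of Zcwpw1 in Ctrl keratinocytes was 1.66 CPM and those of Pilrb1 and Pilrb2 in TKO were 0.545 and 1.598 CPM. In TKO replicate 1, the odds ratios of Pilrb1 with Zcwpw1 and with Pilrb2 were 5.43 and 25.8, each from 1 cell, and 0 and 0 at 10000 UMIs. That of Gm36551 with Pilrb2 was 15.8 without thinning and 11.9 within 5 bins of depth. Levels by class also moved, those of the small differentiating-like class under the most settings. In CPM, Zcwpw1 had 0.264 there in Ctrl at 5000 UMIs, 0.517 with doublets kept, 0.773 at 3000 genes, 0.678 with uncorrected components and 0.810 at resolution 2, and in TKO 1.53 at 5000 UMIs, 2.33 at 3000 genes, 1.95 uncorrected and 2.11 at resolution 2. Gm36551 had 5.21, 10.7, 10.68 and 10.6 there in TKO under these same 4 settings. At 5000 UMIs Ctrl Zcwpw1 was 1.15 in hair follicle-like cells, Ctrl Gm36551 0.184 in basal-like cells, TKO Pilrb1 0 in hair follicle-like cells and TKO Pilrb2 2.01 in basal-like cells. At resolution 2, hair follicle-like cells of TKO had 0.753 of Pilrb1 (0.600 uncorrected), 26.9 of Gm36551 and 1.56 of Pilrb2, and at resolution 0.5 Ctrl basal-like cells had 2.25 of Zcwpw1. The causes of these shifts were not tested. Pilrb1 and Pilrb2 had at most 80 keratinocyte UMIs in a library, and 0 or 1 in each Ctrl library, which limits the precision of their ratios.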
